A study of Mus musculus with 8 samples.

Results

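The genes examined are 10 immediate early genes, Egr1, Klf6, Jun, Junb, Jund, Fosl1, Myc, Ier2, Ier3 and Zfp36, chosen by name as a family, with the condition that each is listed in all 3 gene tables. They are 10 of 9875 genes listed in all 3 and of 10690 listed in at least 1. Transcription factors are encoded by Egr1, Klf6, Jun, Junb, Jund, Fosl1 and Myc. Ier2 is described as a nuclear regulator, Ier3 is a stress-response gene tied to cell survival, and Zfp36 encodes an RNA-binding protein.

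The cells were NIH3T3, an established line of mouse embryonic fibroblasts, grown in DMEM with calf serum. Nontreated cells (NT) got no arsenite. Stressed cells (AS) were kept for 1 h in 250 μM sodium arsenite, which damages proteins and activates stress-responsive kinases. Recovering cells had the same 1 h exposure, were washed, and then recovered in regular medium, for 4 h in the RC4 library and for 8 h in the RC8 library. Serum was thus present in all 4 conditions, so the NT cells were not starved, which limits them as a resting state for genes that serum induces. Each condition had 1 QuantSeq FWD library, in which reads lie close to the 3′ end of polyadenylated RNA, and no replicate. No test across replicates could be made. Intervals below are 95% intervals that cover the counting of reads only. The reads carry no molecular identifiers, so several may come from 1 molecule.

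Immediate early genes are transcribed within minutes of a stimulus, without the need for new protein synthesis, because the factors that switch them on are already in the cell and are activated by kinases. Serum response factor with its ternary complex partners, which binds the CArG box, is the best known of these. Many of the mRNAs are short-lived, and AU-rich elements between the stop codon and the poly(A) site are a common reason. Jun, Junb, Jund and Fosl1 encode subunits of AP-1, a dimeric factor that binds TGACTCA, and Zfp36 encodes tristetraprolin, which binds AU-rich elements and promotes mRNA decay.

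The libraries held 22441452 to 22996421 reads on genes, and levels are given as RPM, the reads of a gene per 1000000 of these reads. The NT level of a member differed by at most 0.454% between the 3 tables, and its value in the AS table is the one printed. RPM is a share of the RNA of a culture, so a lower level per cell and fewer cells with the RNA cannot be told apart. Of 10 genes known to respond to arsenite, 9 were listed, and 5, 8 and 6 of them were at least 2-fold above NT in AS, RC4 and RC8. Over all genes these shares were 0.622%, 3.69% and 2.97%. All 9 fibroblast markers were listed, and their median log2 differences from NT in AS, RC4 and RC8 were -0.06, -0.58 and -0.86, with 0, 3 and 4 of them at least 2-fold below NT. The shares of all genes at least 2-fold below NT were 3.22%, 13.4% and 3.53%. Of 12 markers of other cell types, 11 were in no table, and the remaining marker, Tubb3, was at 2.79 RPM in NT, 2.32 RPM in AS, 11.0 RPM in RC4 and 15.8 RPM in RC8. The part of these marker shifts in the results was not tested. In RC4 the median gene lay at a log2 difference of -0.30 from NT, against -0.04 in AS and 0.01 in RC8, so the RC4 values are best read against that shift.

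After 1 h of arsenite all 10 genes were above NT, as were 43.7% of all genes. A difference of at least 2-fold was used to call a gene, and 4 of the 10 passed it upward, namely Egr1, Zfp36, Ier2 and Jun, against 0.622% of the 10452 genes of the table. None was at least 2-fold lower, where the share over all genes was 3.22%. The median log2 difference of the 10 genes was 0.94, beside -0.04 over all genes. In RC4, 7 of the 10 were still above NT (29.2% of all genes), and 9 after scaling to the median gene, which puts 5040 of 10081 genes above NT by construction. Egr1 alone was at least 2-fold higher there, where 3.69% of all genes were. Klf6 joined it after scaling to the median gene, under which 6.38% of all genes were. Their median was 0.16, beside -0.30. In RC8, 3 of the 10 were above NT (50.6% of all genes), none was 2-fold higher (2.97%) or 2-fold lower (3.53%), and the median was -0.28, beside 0.01. Of the 10 genes 9 had their highest level in AS, against 20.9% of the genes listed in all 3 tables, and Fosl1 had its highest in RC8. For Myc the intervals of AS and RC8 overlapped. After scaling to the median gene Klf6 was marginally higher in RC4 (log2 1.044) than in AS (1.038). Under that scaling Fosl1 was higher in RC4 (0.91) than in RC8 (0.82). On opposite sides of NT, above it in AS and below it in RC8, were 7 of the 10, beside 17.0% of those genes.

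**Figure D1:**
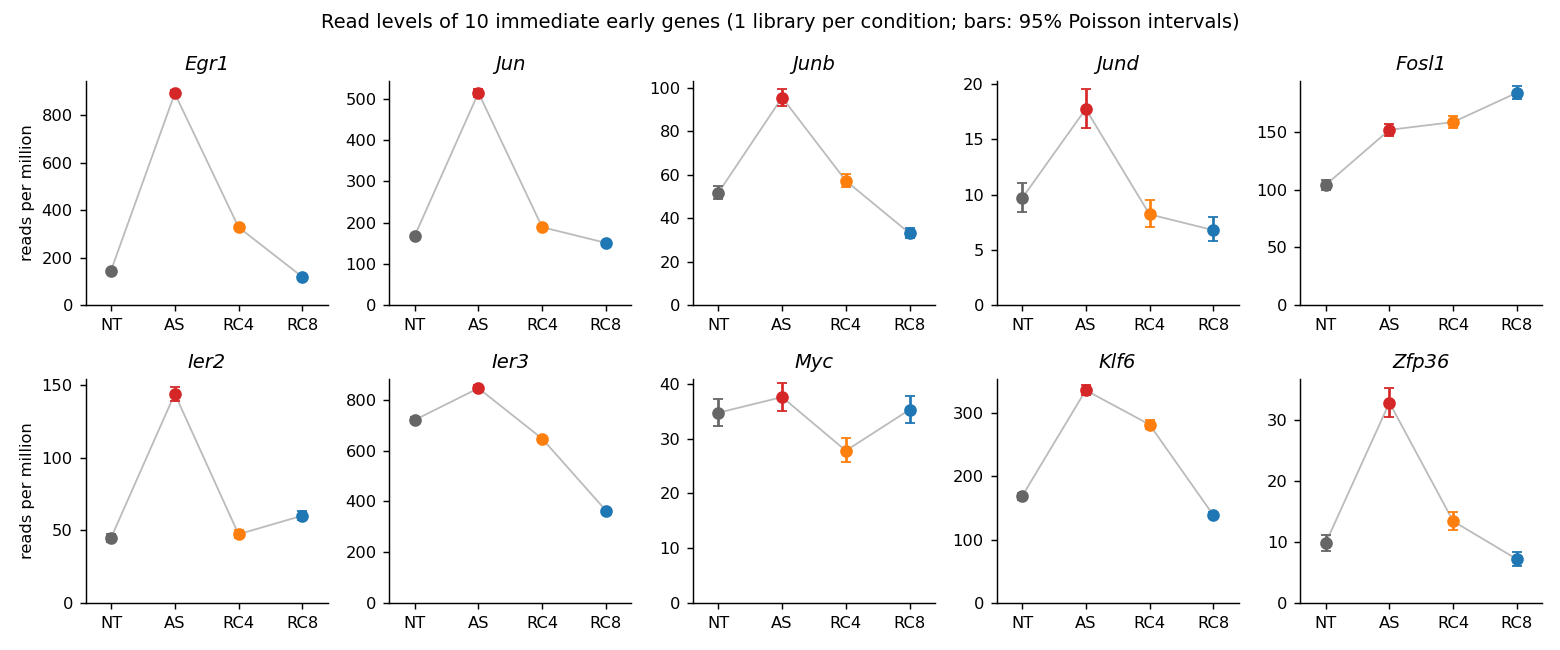
Level of each of the 10 genes in the NT, AS, RC4 and RC8 libraries, in RPM on a linear axis from 0 that differs between genes. Points are single libraries, joined by lines, and bars are 95% Poisson intervals of the read count. Egr1 goes from 146 in NT to 893 in AS, and Fosl1 is the gene whose highest point is RC8.

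Egr1, a zinc finger transcription factor that growth factors and stress induce through serum response factor, stood furthest from NT. Its level was 146 RPM in NT, 893 RPM in AS, 329 RPM in RC4 and 119 RPM in RC8. The order was AS, RC4, NT, RC8, and no counting intervals of neighbours in it overlapped. Egr1 was 6.11-fold above NT in AS (log2 2.61, interval 2.56 to 2.67), the highest rank of all 10452 genes. The next genes in that ranking were Rny1 (log2 2.46), Hspa1b (2.37), Ppp1r15a (2.23) and Gadd45g (1.99), named here because their values place them there. In RC4 Egr1 was 2.24-fold above NT (log2 1.17, interval 1.11 to 1.23), which put it at rank 271 of 10081. By RC8 it was slightly under NT, at a log2 difference of -0.29 (interval -0.37 to -0.22). Of the excess over NT in AS, 24.5% was left in RC4, or 33.5% after scaling to the median gene.

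Klf6, a Krüppel-like zinc finger factor, had a smaller and longer excess. It was at 168 RPM in NT, 336 RPM in AS, 281 RPM in RC4 and 139 RPM in RC8. Both AS and RC4 were above NT and RC8 was below, with no overlap of neighbouring intervals. Its AS level was 1.9966-fold that of NT, just short of the 2-fold call, and its interval of 0.94 to 1.05 on the log2 scale holds the threshold. In RC4 67.6% of the AS excess was left, or 101% after scaling to the median gene, in both cases the largest share among Egr1, Jun, Junb, Ier2, Zfp36 and Klf6. Fosl1, whose AS excess was smaller, had a larger share left in RC4, 114% and 175% in the same order. The log2 difference from NT was 0.74 (interval 0.68 to 0.80) in RC4 and -0.28 (interval -0.35 to -0.21) in RC8.

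Among the AP-1 genes, Jun encodes c-Jun, the subunit that stress-activated JNK kinases phosphorylate. Jun was at 168 RPM in NT, 515 RPM in AS, 189 RPM in RC4 and 151 RPM in RC8. AS stood apart from the other 3 libraries, which lay within a narrow range, although none of their intervals overlapped. The AS level was 3.07-fold that of NT (log2 1.62, interval 1.56 to 1.67), at rank 13 of all genes. In RC4 6.13% of the AS excess was left, or 17.97% after scaling to the median gene.

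Junb and Jund encode further Jun proteins, of which JunB is generally a weaker activator and JunD is present in many resting cells. Junb was at 51.7 RPM in NT, 95.4 RPM in AS, 57.2 RPM in RC4 and 33.0 RPM in RC8. Its RC4 and NT intervals overlapped, and its RC8 level lay under NT at a log2 difference of -0.65 (interval -0.78 to -0.51). Jund was at 9.65 RPM in NT, 17.7 RPM in AS, 8.21 RPM in RC4 and 6.78 RPM in RC8. The intervals of NT and RC4 overlapped, as did those of RC4 and RC8. Jund was counted from 156 to 398 reads a library, so the differences between these neighbours were not resolved at this depth. Its RC8 level lay under NT at a log2 difference of -0.51 (interval -0.82 to -0.21). In AS both were close to each other in size, with log2 differences of 0.89 (interval 0.78 to 0.99) for Junb and 0.88 (interval 0.64 to 1.12) for Jund.

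Fosl1 encodes Fra-1, a Fos-family partner of the Jun proteins. Its level was 104 RPM in NT, 152 RPM in AS, 159 RPM in RC4 and 184 RPM in RC8. The intervals of AS and RC4 overlapped, NT was the lowest and RC8 the highest. Fosl1 was thus the only one of the 10 whose level did not come down in recovery, with log2 differences from NT of 0.54 (interval 0.47 to 0.62), 0.60 (0.53 to 0.68) and 0.82 (0.75 to 0.90). None of them reached 2-fold.

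Among themselves, the 4 AP-1 genes Jun, Junb, Jund and Fosl1 made up 333 RPM in NT, 780 RPM in AS, 413 RPM in RC4 and 375 RPM in RC8. Since each read comes from the 3′ end of a transcript, the counts were not scaled by length. Jun supplied 50.4% of the summed reads in NT (95% Wilson interval 49.2 to 51.5) and 66.0% in AS (65.3 to 66.7). In recovery its share was 45.8% at 4 h (44.8 to 46.8) and 40.3% at 8 h (39.3 to 41.3). Fosl1 supplied 31.3% in NT (30.2 to 32.3) and 19.5% in AS (18.9 to 20.1), then 38.4% at 4 h (37.4 to 39.4) and 49.1% at 8 h (48.0 to 50.1) of recovery. Jun was the larger in NT, AS and RC4 and Fosl1 in RC8. The Junb shares in the same order were 15.5%, 12.2%, 13.8% and 8.81%, and those of Jund lay between 1.81% and 2.90%. These shares leave out Fosl2, which encodes Fra-2, the other Fos-family protein whose gene was listed. Fosl2 was at 314 RPM in NT, 262 RPM in AS, 204 RPM in RC4 and 257 RPM in RC8, above Jun in NT, RC4 and RC8 and above Fosl1 in every library. With Fosl2 in the sum, it supplied 48.5% of the reads in NT and 25.1% in AS, while Jun supplied 25.9% and 49.4%, and in RC8 the shares of Fosl2, Fosl1 and Jun were 40.6%, 29.1% and 23.9%.

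**Figure D2:**
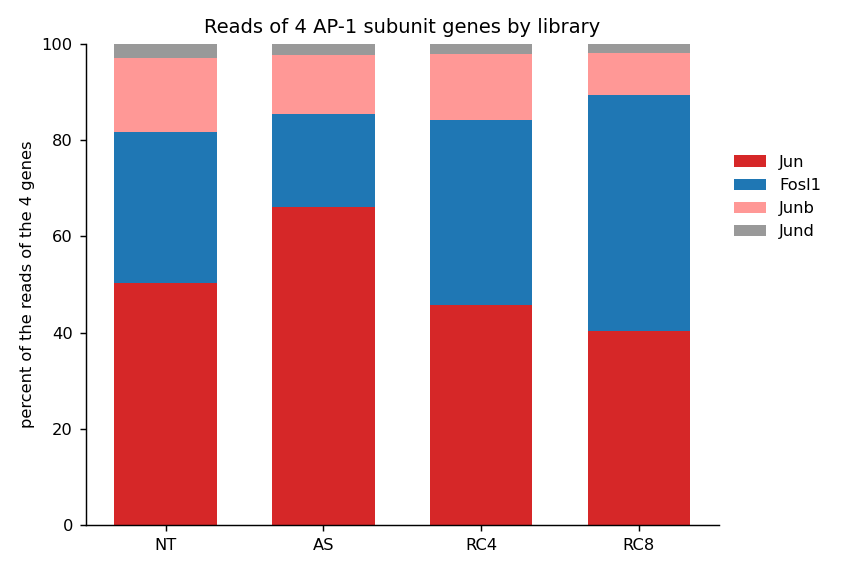
Share of the summed reads of Jun, Junb, Jund and Fosl1 that each gene supplied, in percent, without Fosl2, as stacked bars for the NT, AS, RC4 and RC8 libraries, with 1 library per condition. The Jun share is 66.0% in AS and 40.3% in RC8, and the Fosl1 share is 19.5% in AS and 49.1% in RC8.

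Myc encodes the bHLH factor c-Myc, a regulator of growth and the cell cycle. Its level was 34.7 RPM in NT, 37.6 RPM in AS, 27.8 RPM in RC4 and 35.3 RPM in RC8. The intervals of AS, RC8 and NT overlapped from one neighbour to the next, and RC4 was the lowest. In AS its log2 difference from NT was 0.11 (interval -0.03 to 0.26). In recovery it was -0.32 (interval -0.48 to -0.17) at 4 h and 0.02 (interval -0.12 to 0.17) at 8 h. The RC4 value lies near the median of all genes there, and the AS and RC8 values were not told apart from 0 at this depth.

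Ier2 and Ier3 share a name and not a sequence family. Ier2 was at 44.8 RPM in NT, 144 RPM in AS, 47.3 RPM in RC4 and 60.1 RPM in RC8. AS stood apart, the intervals of RC4 and NT overlapped, and RC8 lay above RC4. Scaling to the median gene brought the log2 difference of RC8 from RC4 to 0.08. Ier2 was 3.22-fold above NT in AS (log2 1.69, interval 1.58 to 1.79, rank 11), and 2.56% of that excess was left in RC4, or 13.04% after scaling to the median gene. In RC8 its log2 difference from NT was 0.43 (interval 0.31 to 0.54).

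Ier3 was at 721 RPM in NT, 847 RPM in AS, 648 RPM in RC4 and 364 RPM in RC8. No neighbouring intervals overlapped, AS was the highest and RC8 the lowest. The AS excess was small, a log2 difference of 0.23 (interval 0.20 to 0.26). In RC8 Ier3 was 1.98-fold below NT (log2 -0.99, interval -1.02 to -0.95), just inside the 2-fold line, at rank 386 from the lowest of 10441 genes. It was the lowest log2 difference among the 10 genes in that comparison.

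Zfp36 had few reads, between 165 and 738 a library. Its level was 9.83 RPM in NT, 32.9 RPM in AS, 13.4 RPM in RC4 and 7.18 RPM in RC8. No intervals of neighbours overlapped in the order AS, RC4, NT, RC8. The AS level was 3.35-fold that of NT (log2 1.74, interval 1.52 to 1.97), at rank 8 of all genes. The log2 difference was 0.44 (interval 0.19 to 0.70) in RC4 and -0.45 (interval -0.75 to -0.16) in RC8, and 15.5% of the AS excess was left in RC4, or 27.8% after scaling to the median gene.

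**Figure D3:**
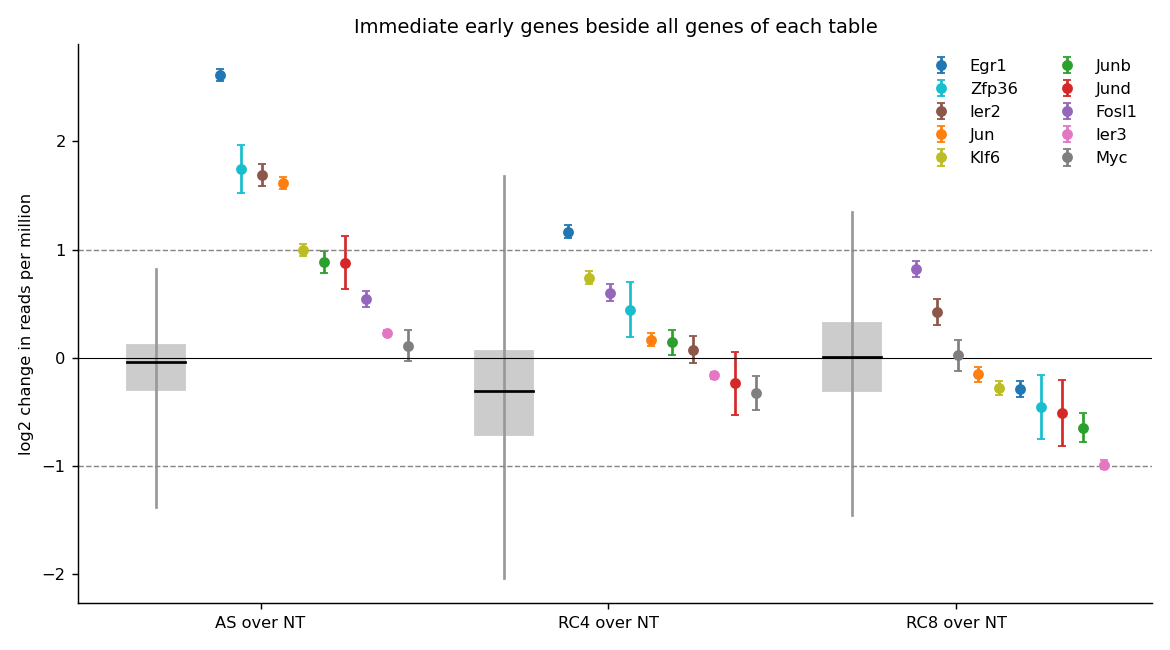
Log2 difference of each of the 10 genes from NT in AS, RC4 and RC8, with 95% counting intervals. The grey box is the 25th to 75th percentile over all genes of the table with the median as a black line, the grey line the 1st to 99th percentile, and dashed lines mark 2-fold. Egr1 in AS, at 2.61, is the topmost point, and Ier3 in RC8, at -0.99, the lowest.

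Consecutive libraries were also compared directly. From AS to RC4, 5 of them were at least 2-fold lower, against 10.6% of the 9940 genes in both tables. These were Ier2 (3.04-fold), Jun (2.72-fold), Egr1 (2.72-fold), Zfp36 (2.45-fold) and Jund (2.16-fold). After scaling to the median gene 4 were, against 6.28% of genes, since Jund came to a log2 difference of -0.89, and with the second read column alone Jund was at -0.97. None was 2-fold higher (5.89% of all genes). From RC4 to RC8, Egr1 was 2.75-fold lower and Klf6 2.03-fold lower, against 2.13% of 9972 genes, and none was 2-fold higher (13.2% of all genes). Ier2 went the other way, with a log2 difference of 0.35 (interval 0.23 to 0.46), as did Myc at 0.34 (interval 0.19 to 0.50). So did Fosl1 at 0.21 (interval 0.15 to 0.28). After scaling to the median gene these differences came to 0.08 for Ier2, 0.08 for Myc and -0.05 for Fosl1. That scaling brought the count for RC8 over RC4 to 5 genes, Egr1, Klf6, Zfp36, Ier3 and Junb, against 3.96% of all genes.

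Of the genes in all 3 tables, 42 were at least 2-fold above NT in AS, 4 of them among the 10. After that, 18 of the 42 were lower in RC4 and lower again in RC8, and 3 of those 18 were Egr1, Jun and Zfp36. There were 10 genes at least 2-fold above NT in AS and below NT in RC8, and the same 3 were among them.

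The deposited tables also give, for each gene, the poly(A) sites (PASs) and the fraction of its reads assigned to each. Egr1, Fosl1, Ier2 and Zfp36 had 1 PAS in all 3 tables. More than 1 PAS was listed for 5 of the 10 genes in each table, beside 50.6% to 53.0% of all genes. The mm9 bases just upstream of the PASs listed in the AS table are printed here for Jun, Ier3, Myc and Klf6, since these 4 had more than 1 PAS in every table. The hexamers AATAAA or ATTAAA are in capitals where they were found. Not printed are a Jun PAS at position 94716346, listed for RC4 only, and a Klf6 PAS at 5867276, listed for RC8 only. Neither had such a hexamer. Each run covers 30 bases, from 34 to 5 bases before the PAS, 5′ to 3′ on the strand of the gene.
Jun, first PAS, chr4:94716230-94716259, minus strand: atatttaagaaaatacAATAAActattgaa
Jun, second PAS, chr4:94715854-94715883, minus strand: ctcaaagcagggacccatggaagtttttaa
Jun, last PAS, chr4:94715737-94715766, minus strand: tcacAATAAAtgtattcaaataatggtttt
Ier3, first PAS, chr17:35959828-35959857, plus strand: gaacacgAATAAActtgatttgcctgtcat
Ier3, last PAS, chr17:35959953-35959982, plus strand: ggtcctgaactctttcttggagttacagac
Myc, first PAS, chr15:61821745-61821774, plus strand: tcccatgtaaatagggccttgaaatgtaaa
Myc, last PAS, chr15:61821881-61821910, plus strand: gtttttagaaaaaAATAAAataattggaaa
Klf6, first PAS, chr13:5866987-5867016, plus strand: tcctgaagggtgtctgcaccttagaaaaaa
Klf6, last PAS, chr13:5869580-5869609, plus strand: gttatatttctgtatgaatgtattttttat
Over the PASs of the genes other than Egr1, 6 of 18 held such a hexamer in this window, beside 50.3% of 19066 PASs. The PAS of Egr1 was not examined for it. For Ier3 the hexamer is upstream of the first PAS and for Myc upstream of the last. No match says only that these letters are not in the window.

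Shortening or lengthening was measured as RED, the log2 ratio of the distal to the proximal PAS in the treated library minus the same log2 ratio in NT, over the 2 PASs whose fractions differed most. A RED below 0 means relatively more reads at the proximal PAS. In AS all 5 of the genes with more than 1 PAS were below 0, as were 67.3% of 4447 genes with such a pair. In RC4 it was 4 of 5 (68.3% of 4482 genes) and in RC8 4 of 5 (55.5% of 4524 genes). Most genes with such a pair were thus below 0 as well. The tables do not all list the same PASs for Jun, Junb, Jund and Klf6. Their REDs can be set side by side only for Jun in AS and RC8, Klf6 in AS and RC4, and Jund in RC4 and RC8.

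Jun had the RED furthest from 0 in AS, at -1.02 (counting error 0.08). Its first PAS, at position 94716225 of chromosome 4 and 733 nt after the stop codon, took 70.7% of the reads in NT (Wilson interval 69.2 to 72.1) and 82.3% in AS (81.6 to 83.0). The second PAS took 17.6% in NT and 10.1% in AS, and the last took 11.8% and 7.56%. In RPM the first PAS was 3.57-fold above NT and the second 1.76-fold, so every site was higher and the first was higher by more. In RC8 the first PAS took 74.4% (interval 72.9 to 75.8) and RED was -0.46 (counting error 0.10). The table of RC4 lists a first PAS nearer to the stop codon, 612 nt after it, which took 68.4% in NT and 78.5% in RC4.

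Klf6 has its PASs further apart, 492 nt and 3085 nt after the stop codon. The last one took 18.1% of the reads in NT (interval 16.9 to 19.3), 12.8% in AS (12.1 to 13.6) and 12.1% in RC4 (11.3 to 12.9). RED was -0.59 (counting error 0.08) in AS and -0.68 (0.08) in RC4. The table of RC8 adds a PAS at position 5867276, which took 3.73% in NT and 6.74% in RC8, while the last took 15.0% and 10.7%. The RED over these was -1.34 (counting error 0.18), and -0.51 when only PASs with at least 10% of the reads were used.

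Ier3 used its last PAS, 125 nt beyond the first, in 7.68% of the reads in NT (interval 7.28 to 8.10), 5.84% in AS (5.52 to 6.18) and 3.76% in RC4 (3.46 to 4.08). The RC8 table has 7.39% in NT and 5.93% in RC8. RED was -0.42 (counting error 0.06), -1.09 (0.08) and -0.34 (0.08), so RC4 was the lowest, and its 2 PASs were the same in all 3 tables. Myc also had the same 2 PASs throughout, 136 nt apart. The first took 45.4% of its reads in NT (interval 42.0 to 48.9) and 53.6% in AS (50.2 to 57.0), then 50.4% at 4 h (46.6 to 54.3) and 58.1% at 8 h (54.7 to 61.4) of recovery. The interval of its RED held 0 in RC4 (-0.29, interval -0.59 to 0.01) and not in AS (-0.47, -0.76 to -0.19) or RC8 (-0.74, -1.03 to -0.46). These 3 intervals overlapped, so the REDs were not told apart from each other. The fractions come from a model that assigns reads to PASs, and the intervals do not cover error in that assignment.

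Junb and Jund lay otherwise. Junb took 64.2% of its reads at the first PAS in NT and 65.3% in AS, with a RED of -0.07 (counting error 0.11), and has 1 PAS in the other tables. At its first PAS Jund had 43.6% of its reads in NT (interval 37.2 to 50.2), 28.0% at 4 h (22.2 to 35.0) and 30.6% at 8 h (24.1 to 38.4) of recovery. RED was 0.99 (counting error 0.31) in RC4 and 0.81 (0.32) in RC8, from 156 to 218 reads a library, and Jund was the gene above 0 in both. In the table of AS, Jund has 1 PAS, at position 73224591, and 100% of its NT reads are assigned to it. The NT share of Jund at its first PAS thus depends on which PASs a table lists, which the counting intervals do not cover.

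**Figure D4:**
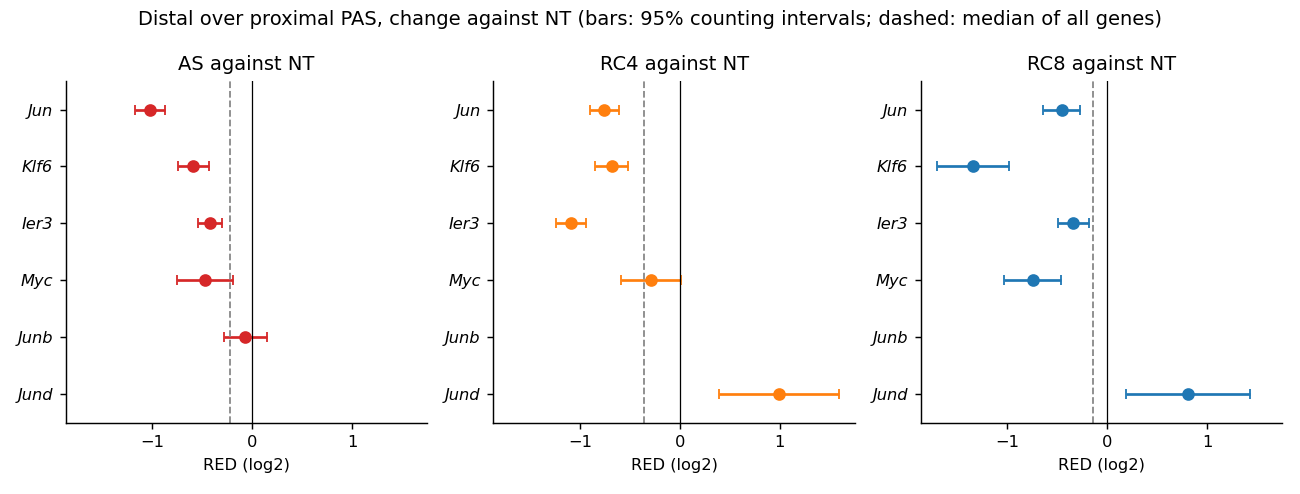
RED of the members with more than 1 PAS in the tables of AS, RC4 and RC8, on a log2 axis with 95% counting intervals. The dashed line is the median over all genes with such a pair, and a gene with 1 PAS in a table has no point. Jun in AS is at -1.02 and Jund in RC4 at 0.99, and the tables do not all list the same PASs for Jun, Junb, Jund and Klf6.

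The 10 genes are compact. In the GENCODE annotation of mm9, Jun, Junb, Jund and Ier2 have a single exon, as do 2.57% of 8895 genes of the tables with a protein-coding transcript. At most 3 exons were found in 8 of the 10, beside 11.6% of these genes. All 10 span less than 10000 nt, from 1240 nt for Ier3 to 8905 nt for Klf6, beside 25.2% of genes, and the medians are 3034 nt and 23457 nt. Jun lies at chr4:94715725-94718913 on the minus strand, and Zfp36 at chr7:29161803-29164274 on the minus strand.

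The segment from the stop codon to the PAS with the most NT reads in the AS table was also examined. In its length the genes were closer to the rest, with a median of 623.5 nt beside 740 nt over 7962 genes. The pentamer ATTTA, the core of AU-rich elements, was present in 8 of the 10 and in 62.6% of genes. Ier3 held 5 of them, 8.24 per kb, more than 97.7% of genes, and Klf6 and Ier2 held none in this segment. For Klf6 the segment was 492 nt long and did not reach its last PAS, 3085 nt after the stop codon. The nonamer TTATTTATT, which contains ATTTA and is the site tristetraprolin prefers, was found in Zfp36 alone among the 10 and in 6.53% of genes. It is shown here because the protein Zfp36 encodes binds this element, in capitals within 30 bases of mm9 5′ to 3′ on the strand of the gene.
Zfp36, chr7:29161969-29161998, minus strand: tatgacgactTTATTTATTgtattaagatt

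Promoters from RefSeq (GRCm38.p6, 250 bases before to 50 after the start) matched Jun, Junb, Jund, Ier3, Klf6 and Zfp36, which is 6 of the 10. Egr1, Fosl1, Ier2 and Myc were not matched. Both strands were searched. A CArG box was found in Zfp36 only, beside 1.63% of 32851 promoters and 1.32% of the 9938 promoters of genes in the tables, and is shown in capitals because serum response factor binds it.
Zfp36, chr7:28379267-28379296 of GRCm38.p6, minus strand: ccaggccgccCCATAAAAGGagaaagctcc
TATAAA was found in Junb, in 13.6% of all promoters and in 6.71% of those of genes in the tables. The AP-1 site TGACTCA and the CRE TGACGTCA were found in none of the 6, beside 5.20% and 1.79% of all promoters and 3.38% and 3.28% of those of genes in the tables. A match is a description of letters and not of binding.

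Related genes were examined as 6 lists. For comparison, 0.622%, 3.69% and 2.97% of all genes were at least 2-fold above NT in AS, RC4 and RC8. At least 2-fold below NT were 3.22%, 13.4% and 3.53%. Of 45 other immediate early genes, 40 were in the AS table, and 5 of them were at least 2-fold above NT and none 2-fold below, with a median log2 difference of 0.26. The 5, named because the count is small, were Gadd45g (log2 1.99), Csrnp1 (1.94), Btg2 (1.29), Klf2 (1.28) and Dusp1 (1.18). Dusp1 encodes a phosphatase of MAP kinases, and Gadd45g and Btg2 restrain growth after stress. In RC4, 8 of 39 were 2-fold higher and 7 lower (median -0.16, beside -0.30 over all genes). In RC8 7 of 38 were higher and 7 lower (median 0.13, beside 0.01). Gadd45g was at 95.9 RPM in RC4 against 20.1 in NT (log2 2.26), and Ctgf, a secreted matricellular protein, at 472 against 103 (log2 2.19). On the low side in RC8 were Nfkbiz (log2 -2.29) and Cebpb (log2 -2.26), both nuclear regulators of inflammatory genes. Fos, Fosb, Atf3 and Arc were in none of the tables, which list genes with at least 50 reads in both libraries of a pair.

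Of 14 AP-1 partners and relatives, 7 were listed. None was 2-fold higher in AS and Mafk was 2-fold lower (log2 -1.07, from 108 reads in NT to 51), while Maff, another small Maf protein, was 2-fold higher in RC4 (log2 1.79). Among EGR and Krüppel-like relatives, 15 of 19 were in the AS table. Klf2 was 2-fold higher there, Klf5 was 2-fold higher in RC4 (log2 1.53), and Klf16 (log2 -2.88), Nab2 (-1.28), a corepressor that binds EGR proteins, and Klf7 (-1.01), named because the count is small, were 2-fold lower in RC4. Of all genes 13.4% were 2-fold lower in RC4. Scaling to the median gene left 1 of these 3 past 2-fold, and 6.38% of all genes.

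The MYC network had 9 of 12 genes in the AS table, with Mxd3 at a log2 difference of 1.41 (56 reads in NT and 148 in AS) and Mga at -1.33. Both encode dimer partners of Max. Mxd3 was not listed for RC4 or RC8, and none of the 8 genes listed for each was past 2-fold there. Of the 21 relatives of Zfp36 and factors of AU-rich element decay, none was 2-fold from NT in AS or RC8. In RC4 none was above NT (29.2% of all genes were), with a median log2 difference of -0.50 beside -0.30 over all genes. Zfp36l2 (log2 -1.09) and Cnot3 (-1.05) were 2-fold lower there, as were 13.4% of all genes. Neither was after scaling to the median gene. Of 27 genes for serum response factor, ternary complex factors and MAP kinases, Elk4, a ternary complex factor, was 2-fold lower in AS (log2 -1.25, from 85.1 RPM to 35.8). In RC4 the kinase genes Araf (-1.34) and Mapk14 (-1.04) were 2-fold lower, where 13.4% of all genes were. Of these 2, Araf was also 2-fold lower after scaling to the median gene, as were 6.38% of all genes.

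**Figure D5:**
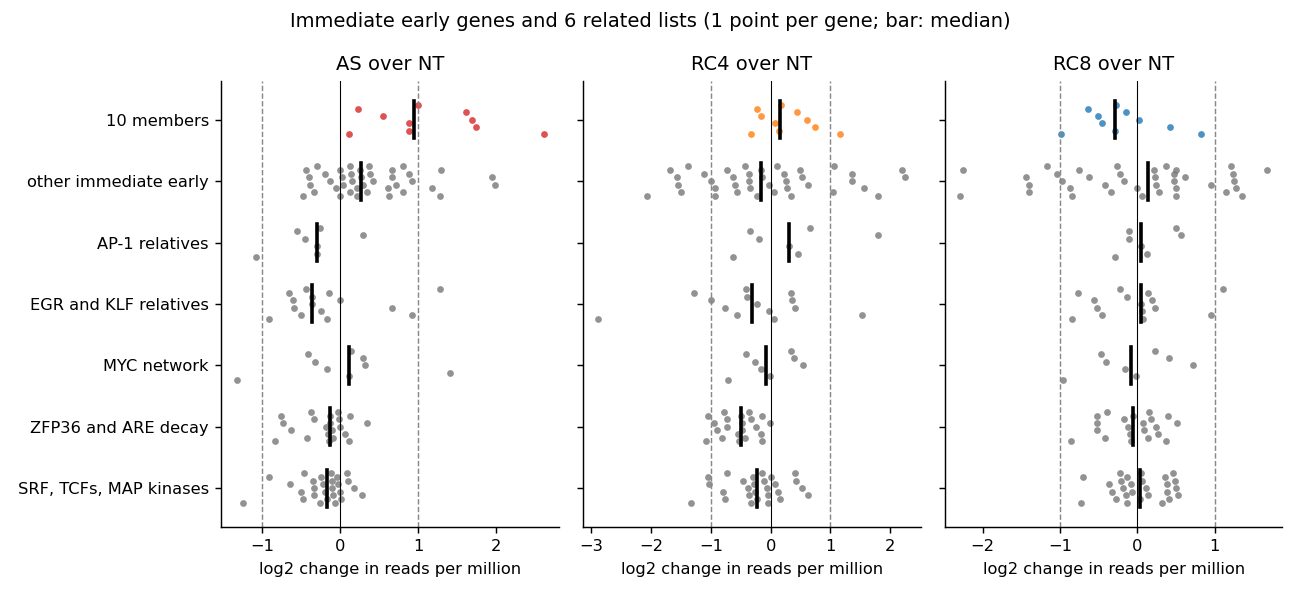
Log2 difference from NT in AS, RC4 and RC8 of the genes in the 6 related lists beside the 10 immediate early genes. Each point is 1 gene, black bars are medians and dashed lines mark 2-fold, on axes that differ between the panels. The 10 genes have a median of 0.94 in AS, and the other immediate early genes 0.26.

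The genes most like each member were found by the root mean square difference of the log2 differences from NT in the 3 comparisons, over the 7814 genes that reached 200 reads in every library. All 3 comparisons share the NT library. For Egr1 no gene came within 0.5, the nearest being Csrnp1 (0.62) and Ddit3 (0.65). Csrnp1 was also near to Jun (0.36, after Ier2 at 0.34), Ier2 (0.32, after Snora61 at 0.23) and Zfp36 (0.42, after Jun at 0.25), and 13, 6 and 5 genes came within 0.5 of these 3. Nearest to Klf6 were Hist1h1c (0.17) and Zbtb2 (0.19), to Junb Atf4 (0.20) and Gm10642 (0.25), and to Jund Ccnl1 (0.12) and 5430416N02Rik (0.13). For Fosl1 they were Eif2b2 (0.09) and Rras (0.10), and for Ier3 Smim4 (0.08) and Ten1 (0.11). Myc had 5216 genes within 0.5, with Hmgn3 and Ppp6c nearest (both at 0.02).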

How the data were processed

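RNA of NIH3T3 cells was sequenced with QuantSeq FWD, 1 library per condition. QuantSeq REV libraries of the same conditions were not analysed here. Per the paper's methods and the submitters' processing notes, the authors mapped reads to mm9 with STAR 2.5.2a and assigned them to known PASs from PolyA_DB using MAAPER. The authors deposited raw whole-number counts of reads on each gene, split over 2 columns for a library, and the fraction of the reads of a gene at each PAS. In the deposited tables genes have at least 50 reads. The tables also hold the authors' own comparisons (P values, RED and length scores), which were not used. That the columns of condition 1 are NT was read from the table names and from the NT counts shared by the 3 tables.

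The 2 columns of a library agreed within sampling noise (chi-square per degree of freedom 0.974 to 1.03) and were summed. Counts were divided by the sum over genes (22441452 to 22996421 reads). Log2 ratios have exact conditional binomial intervals, RPM exact Poisson intervals and PAS shares Wilson intervals, all at 95% and for counting error only. A gene was called at 2-fold, with no p-value. The calculation was run on simulated libraries with counting noise alone, which checks the arithmetic and says nothing of variation between cultures. Named besides the 10 genes were at most 4 genes per list, those furthest from NT and past 2-fold, and the 2 most alike to each member. Genes of the AS ranking, Btg2, Dusp1, Klf7, Fosl2, and Csrnp1 as a list gene were named after their values were seen, as were genes named as not listed. A result that this rule would name is not reported here. The members and lists were chosen with earlier results of these data known. Python 3.11.15, numpy 2.4.6, pandas 2.3.3, scipy 1.17.1, pysam 0.24.0, matplotlib 3.10.9, R 4.3.3 and edgeR 4.0.16 (for its TMM factors only) were used. Alternatives were median-gene and TMM scaling, each read column alone, the NT values of another table, 1.5-fold and 3-fold calls, at least 200 reads, and PASs with at least 10% of the reads. Sequences came from mm9 with the GENCODE annotation, and promoters from RefSeq.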

Additional observations from a re-analysis of the deposited data

Results flagged for a closer look

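Of the 10 genes, 7 lay above NT in AS and below NT in RC8, as did 17.0% of the genes of both tables (1737 genes). The difference between the conditions was not tested, since each has 1 library, and both comparisons share the NT library. The log2 differences from NT in AS and RC8 were 2.61 and -0.29 for Egr1, 1.62 and -0.15 for Jun, and 1.74 and -0.45 for Zfp36. They were 0.89 and -0.65 for Junb, 0.88 and -0.51 for Jund, and 1.00 and -0.28 for Klf6. Ier3 was the gene with the smaller value in AS, 0.23 and -0.99.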

How the results depend on the processing

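No paired analysis was possible because each condition has 1 library, and for the same reason no library could be left out. Of 105 counts and medians under an alternative, 95 stayed close to the main value and 10 moved, and of 210 single log2 differences and REDs 185 stayed and 25 moved. A value stayed if it shifted by no more than its 95% counting error, and a count if it changed by at most 1.5-fold. The NT reads of another table are nearly the same reads and shifted no log2 difference by more than 0.0065, so those cases could hardly move. Of 30 log2 differences 11 moved under scaling to the median gene, and 11 under TMM. A call at 1.5-fold gave 7 genes higher in AS (main 4, and 1.88% of all genes at 1.5-fold), 3 in RC4 (main 1, 8.04%) and 1 in RC8 (main 0, 11.3%), and 2 lower in RC8 (main 0, 11.9%). A call at 3-fold gave 0 higher in RC4 (1.08%). In RC4, scaling to the median gene or by TMM added 0.30 and 0.29 to every log2 difference, so that the median of the 10 genes went from 0.16 to 0.46 and 0.45, 2 genes instead of 1 were 2-fold higher (Egr1 and Klf6, beside 6.38% and 6.23% of all genes), and Jund (0.07 and 0.05) and Ier3 (0.14 and 0.13) came out above NT. Over all genes 372 were 2-fold higher and 1347 lower in RC4, 643 and 643 after scaling to the median gene and 628 and 667 after TMM. In RC8 over RC4, scaling to the median gene, chosen after seeing the data, gave 5 genes 2-fold lower in place of 2 (3.96% of all genes). The shares of the AS excess under that scaling and the AP-1 sum with Fosl2 were also chosen after seeing the data. Klf6 passed 2-fold in AS under both scalings, which made 5 genes (0.718% and 0.727% of all genes), and with the first read column alone Klf6 and Jund both passed, which made 6 (0.366%). With the first read column alone Myc was at -0.03 in AS and 0.00 in RC8. The NT fractions of another table could be used only where the listed PASs were the same. Counting limits Jund and Zfp36 most, at 156 to 738 reads a library.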

Other observations

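Gene structure and the AU-rich nonamer were also set against the AS and recovery values of the genes other than the 10, as counts with no test. In AS, at least 2-fold above NT were 1.84% of 217 genes with 1 exon (4 genes), 1.54% of 780 genes with 2 or 3 exons (12 genes) and 0.337% of 7705 genes with more than 3 exons (26 genes). In RC4 the shares were 4.37%, 4.47% and 3.74%, and in RC8 4.61%, 3.35% and 3.08%. Genes with TTATTTATT between the stop codon and the PAS were at least 2-fold above NT in 1.16% of 519 cases in AS and 7.65% of 497 in RC4, beside 0.390% of 7433 and 3.22% of 7079 genes without it. In RC8 the shares were 3.13% and 2.91%. Their median log2 difference from NT in AS was -0.25, beside -0.05 for genes without it, so the upward share and the median lay on opposite sides.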
